A study of Homo sapiens with 30 samples.

Results

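Long stretches of the genome that stayed at the nuclear lamina in G1, S and G2 were collected from 3 lists of lamina-associated intervals made in HCT116, a human colorectal carcinoma line. Chromosomes 1 to 22 (hg19) were divided into 28803 bins of 100 kb, and a bin counted as covered in a stage when at least 0.5 of it lay in an interval of that stage. In all, 4487 bins were covered in all 3 stages and formed 268 unbroken runs. The 77 runs of 20 bins or more, each 2 Mb or longer, are the long kept stretches, and they hold 2719 bins or 271.9 Mb. That is 60.6% of the kept bins and 9.44% of all bins. The remaining 191 runs, with 1768 bins, are called short kept stretches. Of the 27630 genes in the RNA tables, 593 lay wholly inside a long kept stretch, and these member genes are described below together with their RNA.

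The domains were mapped by proximity labelling of DNA with the peroxidase APEX2 fused to lamin B1, as 12 samples of pulled-down and input DNA from HCT116 cells in G1, S and G2. For RNA there were 8 libraries in 4 groups of 2, all from the embryonic kidney line HEK293FT. One group was the nuclear fraction and another the cytosolic fraction. The other 2 were RNA labelled near the lamina, once without fixation (native lamina) and once with paraformaldehyde (PFA lamina). All 8 libraries came from asynchronous cells carrying the transfected construct, introduced with Lipofectamine 2000, so the fractions share it with the lamina preparations. Libraries from cells without the construct or without labelling were not analysed here. The labels do not say that replicates came from separate cultures, so the p-values below measure the spread between these libraries, which may be technical. Domains and RNA come from different cell lines, and the position of the stretches in HEK293FT was not measured.

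Lamina-associated domains are large blocks of chromatin that touch the protein meshwork under the inner nuclear membrane. They are known to be poor in genes, replicated late and rich in repressive histone marks, and many hold genes used by other tissues, such as olfactory receptor clusters and very long neuronal genes. Some genes inside them escape repression, often from promoters rich in CG dinucleotides.

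Promoters of 6 member genes are shown because they span the range from a widely read gene to a receptor gene without any count. Each covers 250 bases before to 50 bases after the gene's annotated start. It is taken from RefSeq on GRCh38.p14 and is written 5′ to 3′ with CG dinucleotides in capitals. TLE4 (chr9:79571715-79572014 on the plus strand), ZWINT (chr10:56361210-56361509 on the minus strand) and ROBO1 (chr3:79767949-79768248 on the minus strand) were among the member genes with most RNA. CNTN5 (chr11:99020699-99020998 on the plus strand) and CNTNAP5 (chr2:124025037-124025336 on the plus strand) encode neuronal adhesion proteins and had no count in any library. OR4A16 (chr11:55342951-55343250 on the plus strand) is an olfactory receptor gene of chromosome 11, also without a count.
TLE4: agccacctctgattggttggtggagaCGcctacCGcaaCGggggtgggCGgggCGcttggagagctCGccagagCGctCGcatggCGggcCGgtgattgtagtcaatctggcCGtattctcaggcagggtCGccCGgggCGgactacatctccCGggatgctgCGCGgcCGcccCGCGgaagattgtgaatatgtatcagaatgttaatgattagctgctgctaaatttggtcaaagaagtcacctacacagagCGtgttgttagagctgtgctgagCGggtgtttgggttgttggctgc
ZWINT: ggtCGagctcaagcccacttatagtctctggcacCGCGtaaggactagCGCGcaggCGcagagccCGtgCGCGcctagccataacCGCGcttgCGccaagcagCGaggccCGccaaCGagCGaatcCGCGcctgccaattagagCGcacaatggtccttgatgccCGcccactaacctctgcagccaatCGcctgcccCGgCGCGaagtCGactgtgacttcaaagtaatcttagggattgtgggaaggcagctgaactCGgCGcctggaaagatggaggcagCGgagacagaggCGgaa
ROBO1: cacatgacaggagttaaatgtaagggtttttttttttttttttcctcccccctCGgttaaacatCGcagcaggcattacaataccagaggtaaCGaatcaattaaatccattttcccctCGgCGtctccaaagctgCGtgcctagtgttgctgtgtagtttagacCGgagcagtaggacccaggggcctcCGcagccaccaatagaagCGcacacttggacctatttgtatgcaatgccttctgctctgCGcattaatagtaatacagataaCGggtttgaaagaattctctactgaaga
CNTN5: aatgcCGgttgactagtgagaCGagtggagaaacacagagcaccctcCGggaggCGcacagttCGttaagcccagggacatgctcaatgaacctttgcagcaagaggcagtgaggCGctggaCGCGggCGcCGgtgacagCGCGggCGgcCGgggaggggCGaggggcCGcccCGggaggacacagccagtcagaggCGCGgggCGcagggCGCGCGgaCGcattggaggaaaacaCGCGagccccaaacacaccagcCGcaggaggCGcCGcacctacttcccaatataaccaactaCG
CNTNAP5: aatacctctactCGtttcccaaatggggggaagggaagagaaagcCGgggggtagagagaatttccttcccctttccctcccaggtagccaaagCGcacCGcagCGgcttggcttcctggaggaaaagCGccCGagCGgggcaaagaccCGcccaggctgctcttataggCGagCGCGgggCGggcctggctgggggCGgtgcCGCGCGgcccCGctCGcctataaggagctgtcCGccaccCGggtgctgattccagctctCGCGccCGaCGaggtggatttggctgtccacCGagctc
OR4A16: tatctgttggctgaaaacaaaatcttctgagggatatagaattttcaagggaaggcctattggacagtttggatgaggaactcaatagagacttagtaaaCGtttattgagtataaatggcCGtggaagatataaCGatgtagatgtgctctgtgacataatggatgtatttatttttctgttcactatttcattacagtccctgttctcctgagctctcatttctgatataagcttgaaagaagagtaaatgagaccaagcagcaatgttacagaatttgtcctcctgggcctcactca
The TLE4 promoter holds 22 CG dinucleotides and that of ZWINT 29, which is 0.889 and 1.01 times the number expected from their base content. ROBO1 has 11, at a ratio of 0.716. The promoters of CNTN5 and CNTNAP5, with 30 and 26 at ratios of 0.928 and 0.805, are as rich in CG as those of the genes with RNA. OR4A16 has 3, at a ratio of 0.283. Its last 50 bases begin with the triplet atg, so the annotated start may be that of the coding part. The stretch printed for OR4A16 may then not be its promoter. Among these 6, CG-rich promoters belonged both to members with much RNA and to members without a count. Of the 95 protein-coding members without a count, 79 (83.2%) matched a promoter. Their median ratio was 0.226, and 22 (27.8%) reached 0.6 or more. Of the chemoreceptor members, 45 had no count. Starts like that of OR4A16 were not looked for in this set or in those below. Among the 138 protein-coding genes without a count in short kept stretches, 113 (81.9%) matched, their median was 0.182, and 11 (9.74%) reached that ratio. For protein-coding genes above 3 counts in bins covered in no stage, of which 80.6% matched, the median was 0.819 and the share 77.3%. Over all 27305 promoters of the table, with or without a gene in the RNA files, the median was 0.58 and the share 49.0%. Sets of which fewer than 80% of the genes matched were not compared. These include the coding members with RNA, of which 64 of 85 (75.3%) matched, so a difference between coding members with and without RNA was not tested here.

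The stretches ran from 2.0 to 8.0 Mb, with a median of 3.1 Mb. The stage lists chose them, so their coverage is a description. Every one of the 77 lay within a single interval in each of the 3 stages, with no gap inside. Of their 154 edges, 44 were ends of the interval in all 3 stages. The interval reached beyond the edge at 58 edges in G1, 60 in S and 65 in G2, by up to 9.9, 9.9 and 5.7 Mb. Long kept stretches made up 51.0% of the bins covered in G1, 54.9% in S and 48.2% in G2. The 6 stretches of exactly 20 bins held 19 genes, of which 8 had more than 3 counts in a library. The 5 runs of 19 bins, just too short, held 29 genes, of which 4 did. These 6 stretches included the one on chromosome 9 with TLE4 and the one on chromosome 3 with WNT5A, a secreted signalling protein.

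Chromosome 18 had the largest part in long kept stretches, 22.4% of its bins, followed by chromosome 11 with 19.3%, chromosome 8 with 19.3% and chromosome 5 with 15.3%. Chromosomes 20 and 22 had none. The 2 longest stretches both measured 8.0 Mb. One lay at chr3:73500001-81500000 and held ROBO1, the receptor for the guidance protein Slit, and the other at chr5:17200001-25200000 with BASP1, a membrane-bound signalling protein of growing neurites.

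Genes were sparse inside. Long kept stretches held 2.28 gene starts per Mb, short kept stretches 4.10 and bins covered in no stage 10.4. No gene touched 54.5% of their bins, against 42.4% in short kept stretches and 24.5% in bins covered in no stage. Some of the genes that were there were very long. Of the 593 members, 45 (7.59%) spanned more than 500 kb, compared with 2.69% in short kept stretches and 1.02% in bins covered in no stage. These shares count only genes that lay wholly inside. Short kept stretches measured 0.1 to 1.9 Mb, with a median of 0.9 Mb, and many had little or no room for such a gene. Of 454 such genes in all, 45 lay wholly in long kept stretches, 18 in short ones and 238 in bins covered in no stage. Most others crossed a border and were left out, so the shares depend on the length cut and on this rule. Above 1 Mb there were 16 members, led by PTPRD, a receptor phosphatase of synapses, at 2298 kb and CSMD1 at 2059 kb. RefSeq called 236 members (39.8%) protein-coding, against 71.8% of genes in bins covered in no stage. A further 237 were long non-coding, 48 microRNA genes and 28 pseudogenes, and 40 had no match.

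**Figure D1:**
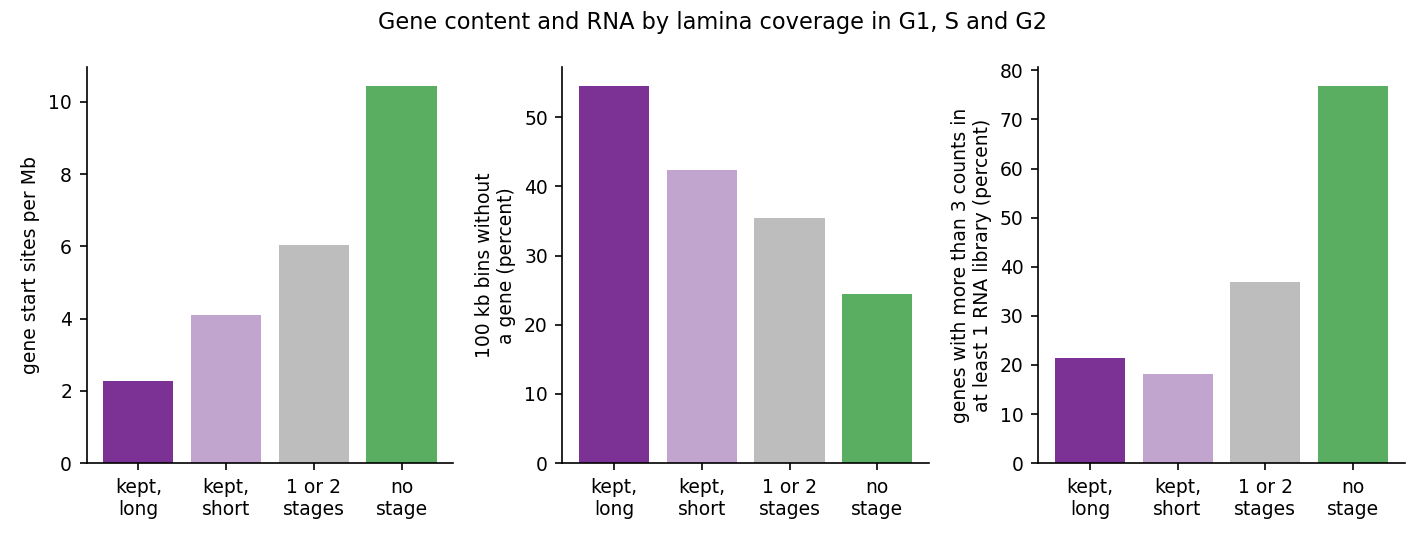
Gene starts per Mb, percent of 100 kb bins without a gene, and percent of genes with more than 3 counts in at least 1 of 8 RNA libraries, for long kept stretches, short kept stretches, bins covered in 1 or 2 stages and bins covered in no stage. Long kept stretches have the fewest gene starts (2.28 per Mb) and the most empty bins (54.5%), while their percent of genes with RNA (21.4%) is close to that of short kept stretches (18.1%).

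For most member genes no exonic read was counted in the HEK293FT libraries. A gene was taken as above the floor when at least 1 library held more than 3 of its counts, which is 0.351 to 1.29 in counts scaled to library size (CPM) for total counts of 8557777 down to 2321291. No count at all was found for 337 members (56.8%), and 127 (21.4%, 95% Wilson interval 18.3 to 24.9%) were above the floor. The share was 18.1% in short kept stretches, 37.0% for bins covered in 1 or 2 stages and 76.8% for bins covered in no stage. For protein-coding genes it was 36.0% in long kept stretches, 28.0% in short ones and 85.6% where no stage was covered. The interval treats genes as independent draws, although neighbours share a stretch. The floor covers the counting of reads only, which carry no molecular identifiers. The filter on low counts passed 85 members (14.3%), against 59.7% of all genes, and only these were tested below.

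Genes with RNA were spread unevenly among the stretches. In 30 stretches no gene was above the floor, in 20 there was 1, and in 7 there were 5 or more. Distance to the edge is given as a description, with no test. Of genes within 300 kb of an edge, 29.1% (37 of 127) were above the floor; the share was 19% (50 of 263) from there to 1 Mb and 19.7% (40 of 203) at 1 Mb or more. For protein-coding genes alone these shares were 44%, 30% and 40.9%, so the innermost genes were close to those near an edge. An edge here ends the part shared by all 3 stages, and only 44 of 154 edges ended the interval in every stage. At the others an interval ran on in at least 1 stage, by up to 9.9 Mb. Very long genes were not all silent: 19 of the 45 members above 500 kb were above the floor, or 7 of 16 above 1 Mb. Of all 454 genes above 500 kb on chromosomes 1 to 22, 60.6% were. AUTS2, a 1194 kb gene of neurodevelopment, had from 95 raw counts in PFA replicate 2 to 509 in cytosolic replicate 1.

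**Figure D2:**
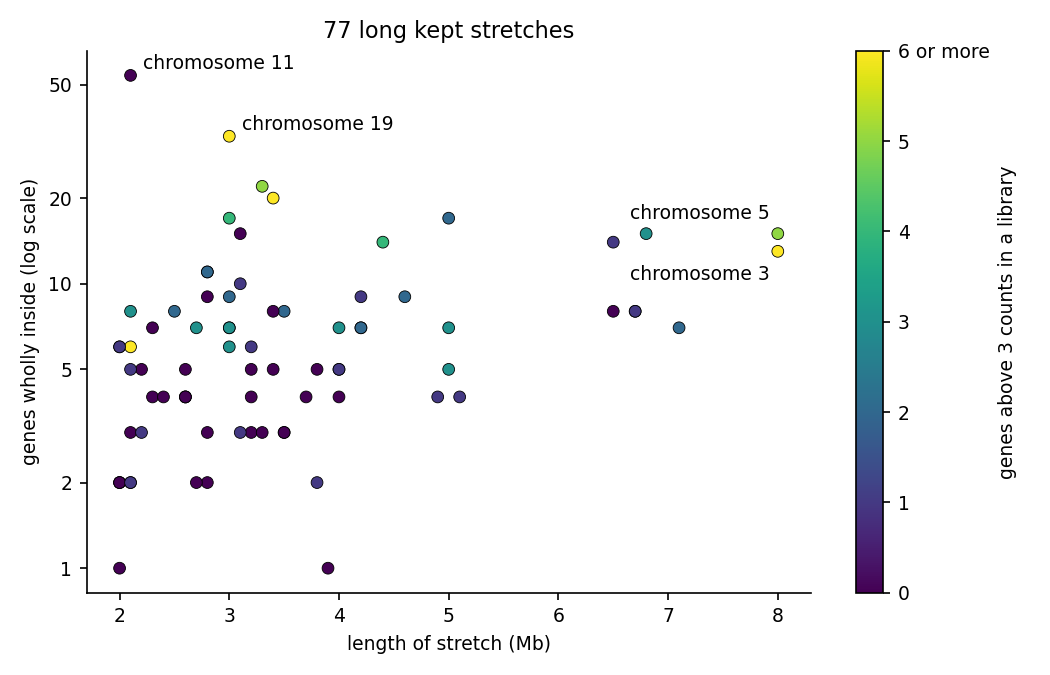
Each point is 1 of the 77 long kept stretches, with its length in Mb on the x axis and the number of genes wholly inside on a log y axis, coloured by how many genes had more than 3 counts in a library. The chromosome 11 stretch with 54 genes has none above the floor and the chromosome 19 stretch with 33 genes has 15.

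A few gene-rich stretches differed in what they expressed. The stretch at chr11:54700001-56800000 held 54 genes, the most of any, of which 49 were olfactory receptor genes, and none was above the floor. By contrast, chr19:21600001-24600000 held 33 genes, of which 15 were above the floor, among them zinc finger genes of the ZNF91 cluster. At chr18:4200001-7600000, 11 of 20 genes were above the floor, led by LAMA1.

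The genes were also grouped by families that their symbols define. Chemoreceptors, which detect odours and tastes, numbered 50 members; 45 had no count and 0 were above the floor, beside 9.68% of the list over chromosomes 1 to 22. The neuronal adhesion list had 33 members, of which 12 were above the floor and 6 were tested; over all chromosomes 73.6% of its 174 genes were above the floor. It includes ROBO1, ROBO2, LRRTM4, ADGRL3, PCDH17 and several classical cadherins. Ion channels and transmitter receptors had 20 members with 5 above the floor, beside 71.2% of the whole list. One of these 5, the antisense RNA CACNA2D3-AS1, entered by its symbol. Other antisense RNAs entered the lists in the same way, such as CHRM3-AS1 here and DPP10-AS1 and ADGRL3-AS1 in the adhesion list. The zinc finger list below took in ZNF385D-AS1 and the pseudogenes ZNF733P and ZNF33BP1. Such antisense RNAs are counted again in the antisense list. Zinc finger genes, most of them repressors with KRAB domains, had 30 members with 13 above the floor, beside 87.9% of all 553 such genes. Intergenic long RNAs (LINC symbols) made up 148 members with 9 above the floor, antisense RNAs 33 with 11, and LOC symbols 80 with 10. Over all chromosomes the shares above the floor were 27.4% for LINC symbols, 75.4% for antisense RNAs and 53.6% for LOC symbols. Of 56 microRNA symbols 3 were above the floor, of which 2 are host transcripts, beside 30.5% of the whole list. Of 4 developmental transcription factors, EYA1 was above the floor, beside 87.6% of that list. The only immune gene and the 3 small nucleolar RNAs were not. Detoxification enzymes, keratins and defensins had no member, nor did the ribosomal, proteasome, initiation and respiratory complex genes of the housekeeping list.

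RNA of the members came from few genes. CPM after scaling for library composition (normalised CPM) summed to 2078 over all 593 members as a mean of 8 libraries. The top gene gave 11.3% of it, the top 10 genes gave 50.3% and the top 10 stretches 66.9%. Only 12 members exceeded 50 normalised CPM, against 3947 of all genes, and the highest ranked 325 among all genes.

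ADAMTS1, a secreted protease of the proteoglycan matrix (chr21:28208606-28217728), was the member with most RNA. Its level was 311 and 382 normalised CPM in the nuclear fraction, 112 and 197 in the cytosolic one, 279 and 361 in native lamina, and 108 and 131 in PFA lamina. Nuclear and native libraries were all above the cytosolic and PFA libraries. TLE4, a Groucho-type corepressor (chr9:82186688-82341796), gave 165 and 171 in the nuclear fraction, 133 and 177 in the cytosol, 135 and 165 in native lamina and 106 and 121 in PFA lamina. Here nuclear, cytosolic and native libraries overlapped, and no contrast of TLE4 with the nuclear fraction passed the test. ZWINT, a kinetochore protein (chr10:58117199-58121034), had 67.2 and 99.0 in the nuclear fraction and 86.6 and 158 in the cytosol. Its native lamina values were 149 and 136 and those of PFA lamina 160 and 124, again overlapping the cytosol.

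ROBO1 (chr3:78646388-79817059) reached 162 and 200 normalised CPM in native lamina and 144 and 103 in the nuclear fraction, while cytosol (59.6 and 59.4) and PFA lamina (66.5 and 70.3) were lower without overlap. FAT3, an atypical cadherin (chr11:92085262-92629635), showed 154 and 90.4 in the nuclear fraction, 63.5 and 63.0 in the cytosol, 94.2 and 120 in native lamina and 39.9 and 53.3 in PFA lamina. LAMA1, a laminin chain of the basement membrane (chr18:6941743-7117813), had 122 and 138 in the nuclear fraction and 120 and 89.3 in native lamina. Its cytosolic values, 20.3 and 45.2, and PFA values, 24.9 and 56.6, lay below both. All 3 genes were thus lowest in the cytosol or in PFA lamina.

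BASP1 (chr5:17216932-17276954) ran the other way. The nuclear fraction had 25.7 and 35.2 normalised CPM, below all 6 other libraries, which ran from 68.4 in PFA replicate 2 to 126 in PFA replicate 1. RPSAP58 (chr19:23945816-24010919), a pseudogene copy of the ribosomal protein gene RPSA, had 14.6 and 30.9 in the nuclear fraction, 22.2 to 47.3 in native lamina, 53.7 to 117 in PFA lamina and 87.3 and 134 in the cytosol. Reads of RPSA can fall on this copy, so its level is uncertain. DLC1 (chr8:12940872-13462125) had 27.4 and 37.1 in the nuclear fraction and 50 to 77.8 in the other libraries. TRPS1, a repressor with GATA-type fingers (chr8:116420724-116681255), had 92.1 and 90 in native lamina, above all other libraries, which held 42.8 to 70.3.

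Levels can be compared between genes only per length. Per kb of exon, ZWINT with 66.2 normalised CPM stood above ADAMTS1 with 50.5, RPSAP58 with 46.0 and BASP1 with 42.1, while the long messages of FAT3, TRPS1, DLC1 and LAMA1 had 4.45 to 7.97.

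**Figure D3:**
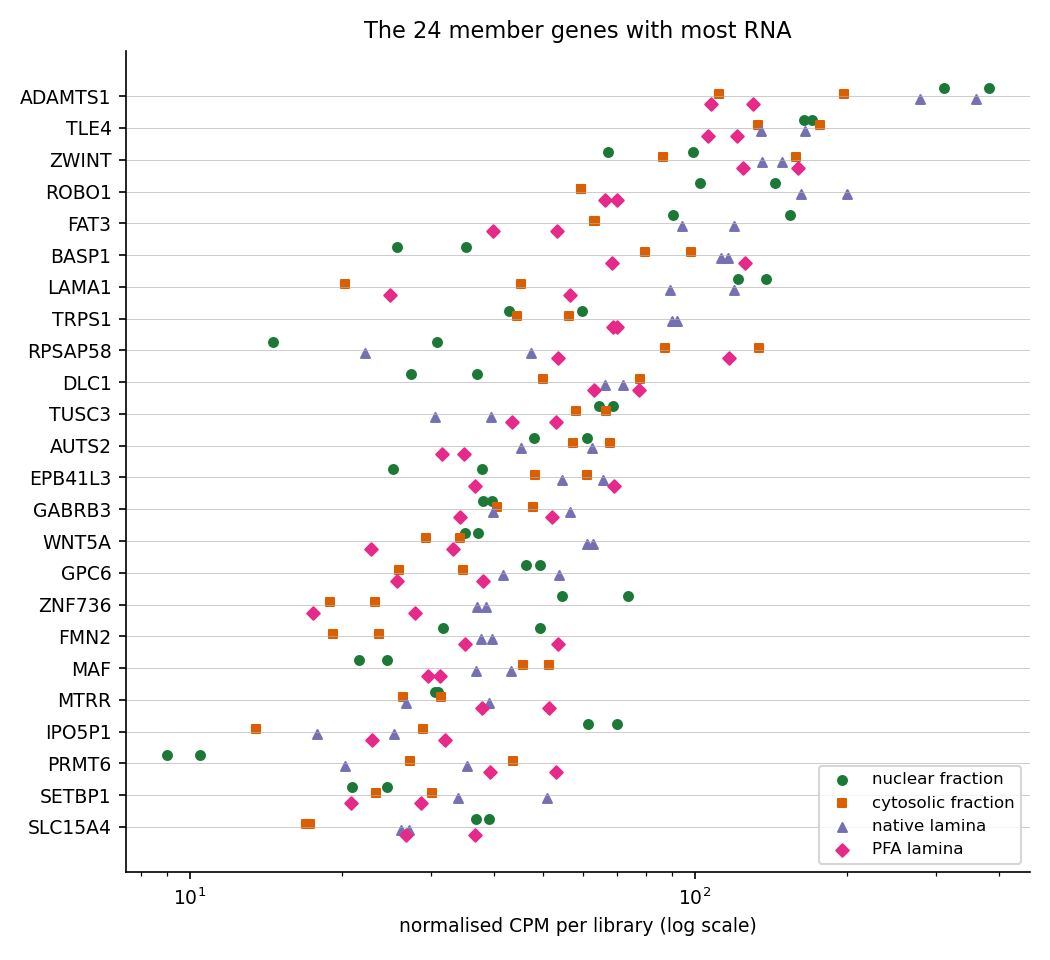
Normalised CPM per library, on a log axis, of the 24 member genes with most RNA, with 2 points for each of the nuclear, cytosolic, native lamina and PFA lamina groups. ADAMTS1 runs from 108 to 382, and the nuclear points of BASP1 (25.7 and 35.2) lie below its other 6 points.

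Among the 10 longest stretches the RNA ranged from none to that of ROBO1. At chr11:36800001-43300000, 8 genes had no count in any library; the longest, LRRC4C, a synaptic adhesion gene, spans 1345 kb. At chr16:58900001-66000000 the summed level was 0.344 to 2.27 normalised CPM, with the pseudogene APOOP5 on top and the cadherin gene CDH8 as its longest gene. In chr14:82000001-88800000 GALC, a lysosomal galactosylceramidase, gave 87.4% of the RNA, at 2.40 to 7.47. In chr4:61500001-68200000 ADGRL3, an adhesion receptor, had 14.6 and 14.8 in the cytosol and 15.8 to 32.5 in the other libraries. In chr8:110900001-117600000 TRPS1 gave 99.6% of the RNA, and CSMD3, its 1214 kb neighbour, had at most 2 counts. PCDH17, a protocadherin, gave 99.6% in chr13:53600001-60100000. GYPC, a red cell membrane glycoprotein, was the only gene above the floor in chr2:122600001-127700000, beside the silent CNTNAP5. In chr2:76000001-81000000 LRRTM4, a synapse organiser, gave 96.9%, and CTNNA2 had 1 count in 8 libraries. Each of these stretches that had RNA thus took most of it from 1 gene. In chr5:17200001-25200000 BASP1 gave 84.2%, and CDH18 had at most 8 counts.

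The sum over members was compared between libraries. In the nuclear fraction member genes took 0.242% (95% Wilson interval 0.238 to 0.246%) and 0.189% (0.186 to 0.193%) of all counts. The cytosolic shares were 0.170% (0.167 to 0.173%) and 0.156% (0.153 to 0.159%). Native lamina had 0.267% (0.264 to 0.271%) and 0.273% (0.269 to 0.278%), and PFA lamina 0.177% (0.173 to 0.180%) and 0.201% (0.195 to 0.207%). These intervals cover the counting of reads only. Native lamina was highest by this share. The same held for genes in short kept stretches, whose mean share was 0.126% in native lamina and 0.11% in the nuclear fraction. It was 0.109% in PFA lamina and 0.0885% in the cytosol. The order depended on the total: mitochondrial genes took 30.4 and 31.3% of the nuclear counts and 6.82 to 20.6% of the others, and LMNB1, the gene of the construct, took 2.96 to 9.49% in lamina libraries and 0.304 to 0.520% in the fractions. Over the counts of chromosomes 1 to 22 without LMNB1, the nuclear share was 0.381% ± 0.06 (SD, n = 2), the native one 0.349% ± 0.00451, the PFA one 0.287% ± 0.00564 and the cytosolic one 0.237% ± 0.00843, so that the means of the nuclear and native groups changed places. This rested on nuclear replicate 1 with 0.423%, since nuclear replicate 2 with 0.338% lay below both native libraries, which had 0.353 and 0.346%. Summed normalised CPM was 2318 ± 192 in the nuclear fraction, 1782 ± 182 in the cytosol, 2394 ± 26.4 in native lamina and 1816 ± 139 in PFA lamina. By that sum both nuclear and native libraries lay above the cytosolic and PFA libraries. With 2 libraries against 2, an exact two-sided permutation test cannot go below p = 0.333, so no test was made. In these libraries, less RNA per cell and fewer cells with RNA cannot be told apart.

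**Figure D4:**
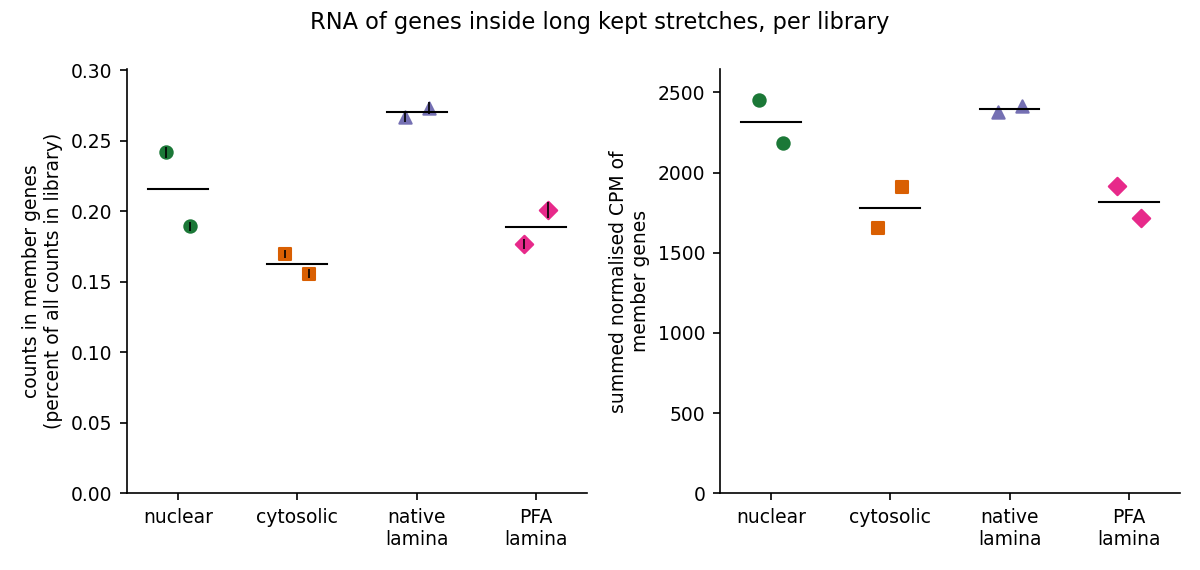
Left, percent of all counts in each library that fall on the 593 member genes, with 95% Wilson intervals; right, their summed normalised CPM. Points are libraries and lines group means of 2. Native lamina lies highest on the left (0.267 and 0.273%), while on the right its mean of 2394 is close to the nuclear mean of 2318.

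The comparison of nuclear and cytosolic fractions gives the relative level of each RNA in these fractions and does not measure retention in the nucleus. By it, 33 of 85 tested members were higher in the nuclear fraction and 10 were lower, at an adjusted p under 0.05 in edgeR's quasi-likelihood test. Over all 16504 genes tested, 26.1% were called higher and 21.2% lower, or 47.3% in all. The median log2 fold change was 0.82 for the members and 0.13 for all genes. Short kept stretches had 30 higher and 8 lower of 92 tested, with a median of 0.82 as well, so nothing here sets the long stretches apart from the short ones. Calls numbered 20 without nuclear replicate 1 and 25 without cytosolic replicate 2, against 43 with all libraries.

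Higher members included all 4 tested LOC symbols and 8 of 12 tested zinc finger genes, whose median log2 fold change was 1.43. Of the zinc finger genes, ZNF736 (chr7:63774251-63817012) had 73.6 and 54.5 normalised CPM in the nuclear fraction and 18.99 and 23.3 in the cytosol, a log2 difference, with its SE, of 1.60 ± 0.31 (edgeR adjusted p = 0.00189). ZNF717 (chr3:75779112-75834734) had 51.2 and 39.7 against 19.8 and 14.4, or 1.40 ± 0.30 (edgeR adjusted p = 0.00307). The other six called were ZNF429, ZNF100, ZNF91, ZNF675, ZNF726 and ZNF254, all in the chromosome 19 stretch. These genes have close paralogs, so reads may be split among them. All 12 tested zinc finger genes had a change above 0, and with total counts in place of composition scaling 7 of them passed.

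Of 6 tested neuronal adhesion genes, 3 were higher in the nuclear fraction. PCDH17 (chr13:58205789-58303065) had 19.9 and 8.76 normalised CPM there and 3.61 and 2.33 in the cytosol, a log2 difference of 2.24 ± 0.54 (edgeR adjusted p = 0.00539). ROBO1 differed by 1.05 ± 0.28 (edgeR adjusted p = 0.00876). LRRTM4 (chr2:76974850-77749559), with 20.9 and 13.7 against 7.89 and 5.92, differed by 1.31 ± 0.39 (edgeR adjusted p = 0.0144). Leaving out nuclear replicate 1 ended these 3 calls, as did leaving out cytosolic replicate 2, and without nuclear replicate 1 the change of PCDH17 was 1.53. The ROBO1 call was also lost without cytosolic replicate 1. ADGRL3, with a change of 0.75 ± 0.34, did not pass.

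Outside the lists, LAMA1 was higher in the nuclear fraction by 2.00 ± 0.42 (edgeR adjusted p = 0.00269), and by 2.67 without cytosolic replicate 2; it shares 230 exonic bases with its antisense neighbour LOC101927188, which was also higher. ADGRB3, a brain adhesion receptor (chr6:69345632-70099403), had 17.1 and 8.93 normalised CPM against 2.94 and 2.75, a difference of 2.19 ± 0.47 (edgeR adjusted p = 0.0029). Both calls held in each of 8 fits that left out 1 library. ADAMTS1 differed by 1.17 ± 0.33 (edgeR adjusted p = 0.0116), a call lost without nuclear replicate 2 or cytosolic replicate 1. FAT3 differed by 0.95 ± 0.31 (edgeR adjusted p = 0.0236), lost without nuclear replicate 1 or either cytosolic library.

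Several RNAs were close to absent from the cytosol. DLGAP1-AS5 (chr18:4264602-4296000), a long non-coding RNA, had 40 and 25 nuclear counts but 0 in either cytosolic library, which makes it at least 10.2-fold higher in the nuclear fraction against a floor of 3 counts per library. LRTM1 (chr3:54952381-55001115), a leucine-rich membrane protein gene, had 27 and 13 counts against 0, or at least 6.22-fold, and its call was lost without nuclear replicate 1. CELF2-AS2 (chr10:11113506-11147451) had 65 and 47 counts against 2 and 0, a ratio of 55.8 with an exact 95% counting interval of 15.1 to 467. For LINC00645 (chr14:28081794-28108842) 70 and 32 counts stood against 3 and 0, a ratio of 33.9 (11.3 to 167). LOC641367 (chr19:21933547-21936240) had 60 and 33 counts against 5 and 3. All 5 passed the test, the first with edgeR adjusted p = 0.00203 and the second with 0.00552. Counting ignored strand, and reads from an antisense gene and its partner cannot be told apart.

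Lower in the nuclear fraction were PRMT6, BASP1, DLC1, GYPC, CDYL2, TUSC1, MAF, ZBTB14 and the pseudogenes RPSAP58 and YWHAEP1. PRMT6, an arginine methyltransferase (chr1:107599267-107601916), had 9.03 and 10.5 normalised CPM in the nuclear fraction and 43.7 and 27.3 in the cytosol, a difference of -1.87 ± 0.37 (edgeR adjusted p = 0.00195). BASP1, which shares 75 exonic bases with LOC285696 on the other strand, differed by -1.54 ± 0.33 (edgeR adjusted p = 0.00281). YWHAEP1 (chr7:63894071-63895895), a copy of the 14-3-3 gene YWHAE, had 4.20 and 6.70 against 25 and 23.7, or -2.16 ± 0.40 (edgeR adjusted p = 0.00147). RPSAP58 differed by -2.28 ± 0.47 (edgeR adjusted p = 0.00253), and by -2.92 without nuclear replicate 2. These 4 calls held in each of 8 fits with 1 library left out. GYPC (chr2:127413511-127454251), with 8 and 11 counts against 34 and 61, differed by -2.45 ± 0.66 (edgeR adjusted p = 0.00938), which was lost without nuclear replicate 1 or cytosolic replicate 2. Without cytosolic replicate 2 its change was -1.53, and without cytosolic replicate 1 it was -3.03. Both pseudogenes can take reads from their parent genes.

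**Figure D5:**
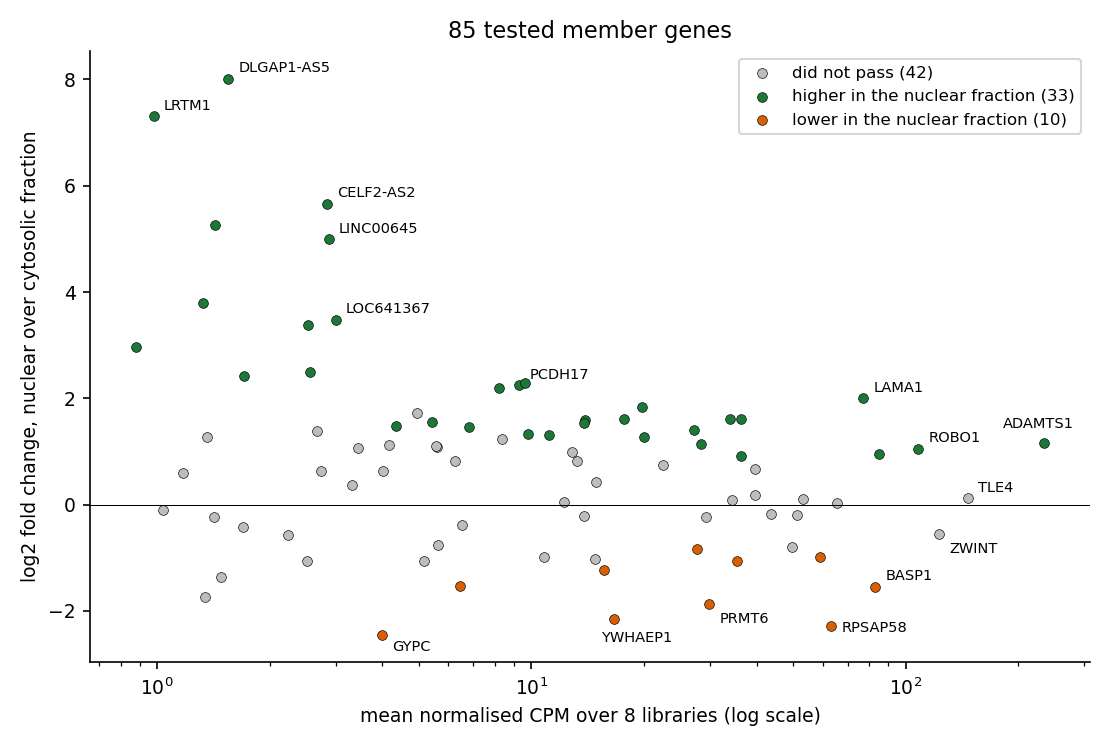
Log2 fold change of the nuclear over the cytosolic fraction against mean normalised CPM over 8 libraries (log axis) for the 85 tested members. The 33 genes that were higher in the nuclear fraction include those of low level and large change at the top left; fitted changes of genes without cytosolic counts, such as DLGAP1-AS5 and LRTM1, depend on a prior count and are no bounds.

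Native lamina was compared with each fraction, and these comparisons share libraries, so their values stand side by side. Against the nuclear fraction 5 of 85 members were higher and 7 lower in native lamina by edgeR, where 3.87% of all genes were called higher and 3.44% lower, or 7.31% in all. The median log2 fold change was -0.12 for members and -0.07 for all genes. In short kept stretches 5 genes were higher and 6 lower of 92 tested, with a median of -0.35. With total counts in place of composition scaling, which moved the median of all genes by 0.28, the split was 12 higher and 2 lower. Calls fell to 0 when any 1 of the 4 nuclear and native libraries was left out, and rose to 30 without either PFA library. They numbered 6 without either cytosolic library.

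The 5 higher members were PRMT6, BASP1, YWHAEP1, DLC1 and CDYL2. BASP1 had 116 and 113 normalised CPM in native lamina and 25.7 and 35.2 in the nuclear fraction, a log2 difference of 1.91 ± 0.33 (edgeR adjusted p = 0.0115). PRMT6 had 35.5 and 20.3 in native lamina, a difference of 1.52 ± 0.36 (edgeR adjusted p = 0.0304). CDYL2, a chromodomain protein (chr16:80631796-80838175), had 32.7 and 41.3 against 20.1 and 13.9, or 1.12 ± 0.31 (edgeR adjusted p = 0.0484). For DLC1 the difference was 1.10 ± 0.30 (edgeR adjusted p = 0.0454) and for YWHAEP1 1.68 ± 0.39 (edgeR adjusted p = 0.0292). For all 5 genes both native libraries lay above both nuclear ones.

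Lower in native lamina were ZNF100, ZNF91 and ZNF254 on chromosome 19, the pseudogenes IPO5P1 and HAVCR1P1, LOC101927296 and DLGAP1-AS5. IPO5P1 (chr19:23437856-23457053), a copy of an importin gene, had 25.4 and 17.8 normalised CPM in native lamina and 70.0 and 61.3 in the nuclear fraction, a difference of -1.60 ± 0.36 (edgeR adjusted p = 0.0261). HAVCR1P1 (chr19:24344995-24346249) had 1 and 0 counts against 22 and 12, a ratio of 45.5 in favour of the nuclear fraction with a counting interval of 7.64 to 1851. LOC101927296 (chr3:73570473-73618925) had 4 and 1 counts against 31 and 25, and shares 321 exonic bases with PDZRN3 on the opposite strand. The 12 tested zinc finger genes were all below 0 in native lamina, with 3 called and a median of -1.38. With total counts 1 of them passed.

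Against the cytosolic fraction 9 members were higher and 2 lower in native lamina by edgeR, where 6.99% of all genes were higher and 6.77% lower, or 13.8% in all. The median log2 fold change was 0.31 for members and 0.10 for all genes. In short kept stretches 6 genes were higher and 0 lower of 92 tested, with a larger median of 0.44. With total counts, which moved the median of all genes by 0.29, the split of members was 14 higher and 2 lower. With the size factors of DESeq2 it was 8 and 3, and ADAMTS1 did not pass. Calls fell to 0 without either cytosolic library or without native replicate 2, to 5 without native replicate 1, and reached 21 and 22 without PFA replicates 1 and 2. The higher members were ROBO1, PTPRD, ADGRB3, PCDH17, LAMA1, ADAMTS1, ADAMTS5, WNT5A and MIR4697HG. PTPRD (chr9:8314246-10612723) had 36.1 and 33.3 normalised CPM in native lamina and 8.42 and 10.6 in the cytosol, a difference of 1.88 ± 0.32 (edgeR adjusted p = 0.00659). ROBO1 differed by 1.60 ± 0.28 (edgeR adjusted p = 0.00711). PCDH17, with 10.1 and 12.5, differed by 1.89 ± 0.54 (edgeR adjusted p = 0.0356), and ADGRB3, with 9.46 and 10.8, by 1.82 ± 0.46 (edgeR adjusted p = 0.0236). MIR4697HG (chr11:133766330-133771635), a microRNA host gene, had 17.9 and 32.7 against 9.36 and 7.401. Lower were RPSAP58 and TMEM261 (chr9:7796491-7799806), a small mitochondrial membrane protein with 9.88 and 4.57 against 24.5 and 26.2. The difference for TMEM261 was -1.79 ± 0.43 (edgeR adjusted p = 0.0183), and -2.46 without native replicate 1.

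Against the nuclear fraction PFA lamina had 7 members higher and 14 lower by edgeR, beside 9.63% and 7.81% of all genes, or 17.4% in all. The median log2 fold change was -0.38 for members and -0.04 for all genes. In short kept stretches 4 genes were higher and 10 lower of 92 tested, with a median of -0.39. The median thus does not set the long stretches apart from the short ones. Under total counts, which moved the median of all genes by 0.17, the split was 8 and 8. Calls fell to 0 without nuclear replicate 1, 7 without nuclear replicate 2 and 4 without PFA replicate 1, and were 29 without PFA replicate 2. PRMT6, with 53.0 and 39.4 normalised CPM in PFA lamina, was higher than in the nuclear fraction by 2.25 ± 0.37 (edgeR adjusted p = 0.00688), and BASP1 by 1.68 ± 0.33 (edgeR adjusted p = 0.00915). DLC1, YWHAEP1, RPSAP58, STAC and ZBTB14 were higher as well. ADAMTS1 changed by -1.54 ± 0.33 on the log2 scale (edgeR adjusted p = 0.0124), LAMA1 by -1.69 ± 0.42 (edgeR adjusted p = 0.0205) and FAT3 by -1.40 ± 0.32 (edgeR adjusted p = 0.0151). Without PFA replicate 2 the change of LAMA1 was -2.38, and without PFA replicate 1 it was -1.19. Of 12 zinc finger genes 5 were lower, or 3 with total counts. CELF2-AS2 had 0 and 5 counts in PFA lamina against 65 and 47.

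Between PFA lamina and the cytosol 0 of 85 members passed in edgeR, where 0.527% of all genes were higher and 0.145% lower, or 0.673% in all; 8 members had an unadjusted p under 0.05 and DESeq2 called 0. Against native lamina 0 of 85 members and 0% of all genes passed in edgeR; 13 members had an unadjusted p under 0.05, and DESeq2 called 6, all lower in PFA lamina. A p above the threshold does not show that the preparations were alike.

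The labelled cell type was checked by marker genes. Of 8 markers of HEK293FT, 7 were above the floor, summing to 410 to 1735 normalised CPM per library. SOX11, which is itself a member gene on chromosome 2, was not. VIM alone had 277 to 1439 and NEFL 39.5 to 232, while PAX2 had 0 to 6.25 and LHX1 2.54 to 8.55. Of 6 markers of HCT116, 5 were above the floor, at a sum of 23.97 to 51.8, and of 5 blood markers of K562 1 was, at 0 to 1.84. The HCT116 marker CDX2 alone had 9.34 to 48.4, so these sums do not settle the cell type. For the nuclear RNAs MALAT1 and NEAT1 the nuclear fraction gave sums of 12820 and 21620, and the cytosol 951 and 1276. In native lamina they summed to 6206 and 13380 and in PFA lamina to 702 and 3824. For the messages of GAPDH and ACTB the sums were 647 and 1098 in the nuclear fraction, 4129 and 7058 in the cytosol, 1795 and 1763 in native lamina and 2266 and 1304 in PFA lamina. Both native libraries thus lay above both PFA libraries for the nuclear RNAs, while for the 2 messages the PFA values lay on either side of the native ones. The part of these RNAs in the member genes' differences was not tested.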

How the data were processed

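The deposited RNA values are raw counts of reads, 1 value per RefFlat gene symbol on hg19. Per the file headers they come from featureCounts 1.5.2, which ignored strand and credited a read over several genes to each. The submitters' processing notes also name TopHat2 2.1.1 and Bowtie2 2.3.2, with no role given. In the cytosolic replicate 1 header the output, but not the input, is named for nuclear replicate 1; the label was kept. Domains were deposited as 1 consensus list for each stage, with no score, so they have no replicate spread; caller and windows are not given in the sources used here. Samples of K562, whose labels contradict each other, and the H3K9me3 samples were not used here.

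Member genes are those whose whole annotated span lies in a long kept stretch; 366 symbols placed on several chromosomes were left out, and 553 of 593 members matched RefSeq. Counts were filtered with filterByExpr by group and tested with edgeR 4.0.16 (limma 3.58.1, R 4.3.3), by its quasi-likelihood test after TMM scaling, with all 8 libraries fitted together and no block, and adjusted by Benjamini-Hochberg over 16504 genes in each of 6 contrasts. The code was tested on simulated data for nuclear against cytosol, with 100 genes changed 2-fold and 100 changed 4-fold. It recovered 2% of the 2-fold and 68% of the 4-fold changes, with 1 false call among 71. Changes of 2-fold can therefore go uncalled. Normalised values are CPM after TMM scaling. Alternatives were other scalings, no filter, DESeq2 1.42.0, a replicate block, other definitions of members and leaving out each library. Genes were named by rule: the top and longest gene of the 10 longest stretches, the 10 members with most RNA, up to 5 called members per contrast and direction (otherwise the 3 with the largest change and the 1 with most RNA), and the top 2 per list; called genes beyond these were named after their values were seen, as were the gene-rich stretches and AUTS2. Promoters printed are those of the first 3 genes by RNA, the 2 longest genes without a count and the first olfactory receptor gene that had an entry, leaving out chromosome 8. The stretches, gene lists and tests were chosen with earlier results of these data known.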

Additional observations from a re-analysis of the deposited data

How the results depend on the processing

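Across other processing no called gene among those named reversed its direction. These results were chosen because they had passed, so a reversal was unlikely from the start. Of 780 gene results under an alternative, 606 kept their side of the threshold and 174 no longer passed, most when a library was left out. The 780 include fits without a library outside the contrast, which hardly moved the change, so the 606 do not measure stability. Left-out libraries moved the count of called members from 43 to between 20 and 51 for nuclear against cytosol, from 12 to between 0 and 30 for native lamina against nuclear, and from 11 to between 0 and 22 for native lamina against cytosol. For PFA lamina the ranges were 0 to 29 against nuclear (21 with all libraries), 0 to 3 against cytosol and 0 to 6 against native lamina (both 0 with all libraries). Without the filter on low counts 19 members were called for native lamina against nuclear, 1 for PFA lamina against cytosol and 6 for PFA against native lamina, where DESeq2 also called 6; the causes were not tested.

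The labels do not say that a replicate number marks a shared culture or batch, and with 2 libraries a group the deviations of same-numbered libraries, which correlated at 0.28 between nuclear and cytosolic groups and at -0.0674 to 0.321 over all 6 pairs of groups, do not settle it. The samples were treated as unpaired. With the replicate block 49 members were called for nuclear against cytosol, 16 for native lamina against nuclear, 15 for native lamina against cytosol and 25 for PFA lamina against nuclear.

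The share of counts from members, in the order nuclear, cytosol, native and PFA lamina, was 0.241, 0.180, 0.301 and 0.211% for genes that start inside a stretch and 0.261, 0.188, 0.319 and 0.223% for genes with any base inside. Without LMNB1 in the total it was 0.287% in native and 0.208% in PFA lamina. Over the counts of chromosomes 1 to 22 without LMNB1, chosen after seeing the data, it was 0.381, 0.237, 0.349 and 0.287%. The share of member genes with RNA was 43.2% for at least 1 count in any library, 10.96% for more than 3 counts in every library and 25.2% for genes with any base inside. A minimum of 30 bins left 47 stretches and one of 15 bins gave 114. Bridging 1 uncovered bin left 77. Asking for any base or for the whole bin to be covered gave the same 77. The intervals there end on the same 100 kb steps as the bins, so these coverage rules could not give another result.

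Depth limits the silent genes: a gene without a count may still be transcribed below 0.351 to 1.29 CPM, and only exons were counted. The domains come from 1 list per stage in another cell line, so no error can be given for the stretches.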
